A study of Mus musculus with 6 samples.

Results

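The Hox cluster genes encode the homeodomain transcription factors that give cells their position along the body axis. They were taken as the 39 rows of the count table, out of 24421 gene entries, whose symbol is Hox, a cluster letter and a paralog number. Of these, 11 lie in the Hoxa, 10 in the Hoxb, 9 in the Hoxc and 9 in the Hoxd cluster. The RNA was that of mouse iPSCs (induced pluripotent stem cells), body cells reprogrammed to a state like that of embryonic stem cells. In 3 libraries both copies of the gene of serum response factor (SRF), a transcription factor of cytoskeletal and immediate-early genes, were deleted (SRFΔ/Δ, called SRF KO). The other 3 came from cells with both copies in the conditional, floxed form (SRFf/f, called WT), so that the controls too carry a modified Srf locus. Both were grown in medium with serum. The labels give no agent, sex or passage, and do not say how the deletion was made, whether feeder cells were present, or whether the replicates are separate clones or cultures. The p-values therefore measure only the spread between these libraries, which may be technical.

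As background, the 4 mammalian clusters arose by duplication, and genes with the same paralog number in different clusters descend from the same ancestral gene. Within a cluster all genes point the same way, and low paralog numbers lie at the 3′ end and are switched on first and most anteriorly in the embryo, high numbers last and most posteriorly. In pluripotent cells the clusters are held nearly silent by Polycomb complexes on CpG-rich chromatin, while MLL complexes, retinoic acid and Cdx factors promote their opening. Fibroblasts and other body cells keep the Hox pattern of the position from which they came.

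In the mm10 (GRCm38) assembly with GENCODE M21 gene models, Hoxa lies on chromosome 6, and Hoxb spans chr11:96194316-96368256 (173.9 kb), Hoxc chr15:102921103-103036852 (115.8 kb) and Hoxd chr2:74668310-74765142 (96.8 kb). Hox transcription starts are shown by 3 promoters, chosen because Hoxa10 and Hoxa11 had the largest differences among the genes tested and Hoxd1, too low to be tested, had a pooled ratio near 1. Each line gives the 250 bases before a RefSeq transcription start (GRCm38.p6), 5′ to 3′ on the strand of the gene, with every CG dinucleotide in capitals.
Hoxa10, chr6:52234940-52235189, minus strand: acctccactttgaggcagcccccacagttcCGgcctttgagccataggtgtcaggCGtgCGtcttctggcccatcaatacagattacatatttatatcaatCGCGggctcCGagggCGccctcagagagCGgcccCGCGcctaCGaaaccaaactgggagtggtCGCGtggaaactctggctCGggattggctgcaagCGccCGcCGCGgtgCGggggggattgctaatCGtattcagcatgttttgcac
Hoxa11, chr6:52245811-52246060, minus strand: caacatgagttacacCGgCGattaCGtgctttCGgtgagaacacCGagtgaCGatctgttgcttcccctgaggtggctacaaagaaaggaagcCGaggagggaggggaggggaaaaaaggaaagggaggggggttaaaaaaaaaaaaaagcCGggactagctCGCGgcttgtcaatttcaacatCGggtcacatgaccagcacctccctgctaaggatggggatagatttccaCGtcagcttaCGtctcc
Hoxd1, chr2:74762730-74762979, plus strand: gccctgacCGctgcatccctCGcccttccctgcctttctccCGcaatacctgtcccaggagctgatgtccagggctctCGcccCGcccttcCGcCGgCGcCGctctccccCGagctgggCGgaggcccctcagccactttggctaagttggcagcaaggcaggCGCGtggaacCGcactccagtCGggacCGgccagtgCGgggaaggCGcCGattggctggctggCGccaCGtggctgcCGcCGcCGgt

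These stretches hold 20 CG dinucleotides at Hoxa10, 13 at Hoxa11 and 24 at Hoxd1. The count varied widely between Hox starts, also among genes called higher: a second start of Hoxa10 (chr6:52240855-52241104) had 7, that of Hoxa7 had 7, that of Hoxa9 had 3 and that of Hoxd13 had 31. The RefSeq promoter table matched 22 of the 39 Hox genes with 24 windows of 300 bases (250 before and 50 after the start). Their median GC content was 57.7%, against 52.7% over all 32851 windows of the table, and the median ratio of observed to expected CpG was 0.63 against 0.38. The CArG box, the sequence to which SRF binds, was searched on both strands and found in 0 of the 24 Hox windows and in 1.63% of all windows. The retinoic acid response element of the DR5 type, searched the same way, was in 0 of 24 and in 0.0974% of all windows. No match says only that these letters are not in these windows.

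Hox RNA was present at a low level in both groups and was about 2.002 times as abundant in SRF KO. Levels are counts scaled to a common library total and by TMM, edgeR's trimmed mean method, and are called CPM. Summed over the 39 genes, the level was 48.1, 52.8 and 54.9 CPM in SRF KO replicates 1 to 3 and 25.9, 23.9 and 28.0 CPM in WT replicates 1 to 3. Every SRF KO library lay above every WT library, with means of 51.9 ± 3.49 and 25.9 ± 2.02 CPM (SD, n = 3). No test was made on the sum. The Hox genes together took 1294, 1399 and 1588 counts in SRF KO and 938, 616 and 803 in WT.

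Detection was broad but shallow. More than 3 counts, the limit that a count of 0 allows, were found for 34, 34 and 35 of the 39 genes in SRF KO replicates 1 to 3 and for 31, 31 and 33 in WT replicates 1 to 3. In every one of the 6 libraries this held for 30 genes, of which 9 were in Hoxa, 10 in Hoxb, 7 in Hoxc and 4 in Hoxd. Of all gene entries, 61.6% were above 3 counts in every library. Hoxc11, Hoxd3 and Hoxd12 had at most 3 counts in all 6 libraries, which is not detectable at this depth, and none of the 39 genes was at 0 in all 6.

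Gene by gene, most Hox genes differed in the same direction. Of 28 Hox genes that passed the filter on low counts, 23 were higher in SRF KO and 0 lower at a Benjamini-Hochberg adjusted p under 0.05 over all entries (quasi-likelihood test of edgeR). Over all 14778 genes tested, 21.2% were called higher and 21.3% lower, and among the 3970 genes within the range of mean level of these Hox genes, 24.7% were called higher and 14.9% lower. At an unadjusted p under 0.05, 24 Hox genes were higher and 0 lower by edgeR, a count for which no share over all genes is given here. DESeq2 called 20 Hox genes higher and 0 lower after adjustment, against 2862 higher and 2627 lower over all 14778 genes. The median log2 fold change of SRF KO over WT was 1.27 over the 28 genes, against -0.01 over all genes tested and 0.07 over those in the same range of level.

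The filter bears on these counts, since it keeps a gene that reaches 0.365 CPM in 3 libraries and 60.5% of all gene entries passed it. Hoxa2, Hoxa9, Hoxa11, Hoxc9 and Hoxd9 passed it through SRF KO libraries alone, and Hoxa4, Hoxa10, Hoxb6, Hoxc5 and Hoxd8 reached it in all 3 SRF KO but only 1 or 2 WT libraries. Their entry into the test thus depended on the group in which they were high. Of the 17 Hox genes that reached it in all 3 WT libraries, 13 were called higher. In the fit with no filter, all 39 Hox genes entered, 25 were higher and 0 lower, and the median log2 fold change was 1.26. In that fit 16.2% of 20060 genes were called higher after adjustment. At an unadjusted p under 0.05, 26 Hox genes were higher and 0 lower, again with no share over all genes given. The SRF KO values were all above the WT values for 26 of the 39 genes and all below for 0. The 26 include Hoxa6, Hoxd11 and Hoxd12, which did not pass the filter, and Hoxd12 had at most 3 counts in any library. Among all genes tested, which had all passed the filter, these shares were 26.2% above and 26.5% below.

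**Figure D1:**
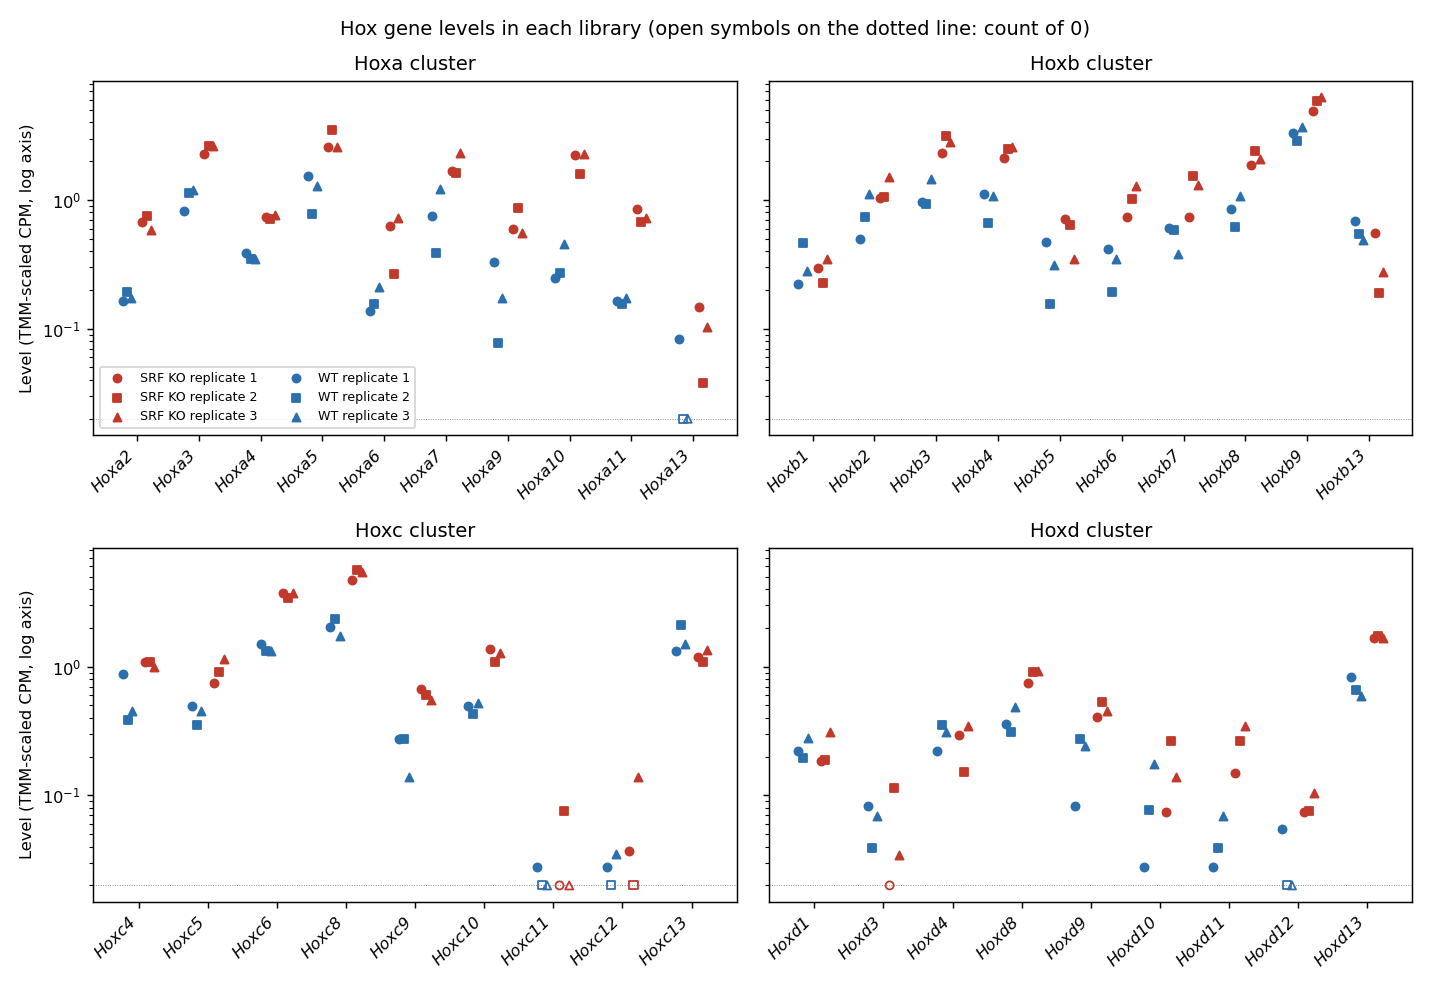
Level of the Hox genes in each library (vertical axis, TMM-scaled CPM on a log axis) by cluster, with SRF KO in red, WT in blue and a marker shape for each replicate number. The red points lie above the blue ones without overlap for 26 genes, and open symbols on the dotted line mark a count of 0.

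In the Hoxa cluster, 8 of 9 genes tested were higher in SRF KO. Hoxa2, which sets the identity of the second branchial arch, had 18, 20 and 17 counts in SRF KO against 6, 5 and 5 in WT. Hoxa3, needed for the thymus and parathyroid, had 61, 69 and 76 counts against 30, 29 and 34. Both were higher in all 3 SRF KO libraries, with log2 fold changes of 1.89 (SE 0.31) for Hoxa2 and 1.28 (SE 0.18) for Hoxa3.

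The middle genes of the cluster followed. Hoxa4 had 20, 19 and 22 counts in SRF KO against 14, 9 and 10 in WT. Hoxa5, which acts in the lung and the thoracic skeleton, had 70, 92 and 74 counts against 56, 20 and 37. Hoxa7 had 45, 43 and 67 counts against 27, 10 and 35. These 3 genes were higher in SRF KO without overlap in CPM, and their log2 fold changes were 1.02 (SE 0.25), 1.21 (SE 0.22) and 1.24 (SE 0.30). Hoxa4 missed the threshold by DESeq2 (adjusted p 0.0592). Hoxa6 had 17, 7 and 21 counts against 5, 4 and 6, did not pass the filter, and had a ratio of pooled, scaled counts of 3.30 with a 95% interval from 1.81 to 6.38 that covers counting error only. In the fit with no filter it was called higher, at a log2 fold change of 1.70 and an adjusted p of 0.00556 by edgeR.

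The largest differences among the Hox genes tested were those of Hoxa10 and Hoxa11, while that of the posterior gene Hoxa9 was below that of Hoxa2. Hoxa10 (chr6:52231197-52240854, minus strand), which acts in the lumbar vertebrae and the uterus, had 60, 42 and 66 counts in SRF KO and 9, 7 and 13 counts in WT. Its mean was 2.03 ± 0.387 against 0.324 ± 0.112 CPM (SD, n = 3), a fold of 6.29, with a log2 fold change of 2.65 (SE 0.27) and an adjusted p of 1.4e-05 by edgeR. In CPM every SRF KO library was more than 3 times the highest WT library. Hoxa11 (chr6:52242106-52245810, minus strand), which acts in the forearm and kidney, had 23, 18 and 21 counts against 6, 4 and 5, and Hoxa9, a regulator of blood progenitors, had 16, 23 and 16 against 12, 2 and 5. Neither gene overlapped between the groups in CPM, with log2 fold changes of 2.16 (SE 0.31) and 1.66 (SE 0.41). Without WT replicate 1, the highest of its group, the log2 fold change of Hoxa9 was 2.34. Over the 8 genes called in Hoxa, adjusted p values by edgeR lay between 1.4e-05 and 0.00704. Hoxa13, the most posterior gene and a regulator of digits and hindgut, had 4, 1 and 3 counts against 3, 0 and 0, near the limit of detection.

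In the Hoxb cluster, 6 of 9 genes tested were higher in SRF KO. Hoxb9 (chr11:96271457-96276595, plus strand), a thoracic patterning gene, was the most abundant per length of this cluster in both groups, with 132, 156 and 182 counts in SRF KO and 120, 74 and 106 in WT. In CPM its groups did not overlap, at 5.69 ± 0.713 against 3.29 ± 0.409 (SD, n = 3), and its log2 fold change of 0.79 (SE 0.14) was the smallest of the 23 genes called (adjusted p 0.000739 by edgeR). Hoxb3 had 62, 83 and 81 counts against 35, 24 and 42. Hoxb4, which supports self-renewal of blood stem cells, had 57, 66 and 75 counts against 40, 17 and 31. Both were about 2.5 times as high in SRF KO in the fit, with log2 fold changes of 1.30 (SE 0.20) for Hoxb3 and 1.31 (SE 0.20) for Hoxb4.

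Hoxb6 had 20, 27 and 37 counts in SRF KO and 15, 5 and 10 in WT. Hoxb7 had 20, 41 and 38 counts against 22, 15 and 11. Hoxb8, which acts in myeloid progenitors and spinal sensory neurons, had 50, 63 and 60 counts against 31, 16 and 31. All 3 were higher in SRF KO and did not overlap in CPM, with log2 fold changes of 1.61 (SE 0.32), 1.18 (SE 0.31) and 1.29 (SE 0.21), and the 6 genes called in Hoxb had adjusted p values between 0.000329 and 0.00902 by edgeR.

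The remaining genes of Hoxb did not pass the test. Hoxb2, a hindbrain gene, had 28, 28 and 44 counts against 18, 19 and 32, and Hoxb5 had 19, 17 and 10 against 17, 4 and 9. Their groups overlapped, and their log2 fold changes were 0.66 (SE 0.29, adjusted p 0.0917 by edgeR) and 0.76 (SE 0.40, adjusted p 0.152). Hoxb13, known from the prostate and tail bud, had 15, 5 and 8 counts in SRF KO and 25, 14 and 14 in WT, a log2 fold change of -0.77 (SE 0.37, adjusted p 0.118). SRF KO replicate 1 lay inside the WT range, and without it Hoxb13 was called lower, at -1.30 (adjusted p 0.0274). Hoxb1, a hindbrain gene that answers to retinoic acid, was too low for the filter, with 8, 6 and 10 counts against 8, 12 and 8 and a pooled ratio of 0.944 (95% interval from 0.524 to 1.69).

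In the Hoxc cluster, which begins with paralog 4, 6 of 7 genes tested were higher. Hoxc8 (chr15:102990607-102994111, plus strand), which acts in thoracic vertebrae and brachial motor neurons, had 127, 148 and 158 counts in SRF KO and 73, 60 and 50 in WT. Its level was 5.26 ± 0.470 against 2.03 ± 0.295 CPM (SD, n = 3), which is 1.38 on the log2 scale (SE 0.14, adjusted p 1.5e-05 by edgeR). Hoxc6 (chr15:102998257-103011881, plus strand), a thoracic gene, had 101, 91 and 108 counts against 54, 34 and 38, or 3.64 ± 0.177 against 1.38 ± 0.097 CPM, and a log2 fold change of 1.39 (SE 0.14, adjusted p 1.4e-05 by edgeR). For both genes the 3 libraries of each group lay close together and the groups far apart.

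Hoxc10, which acts in lumbar motor neurons, had 37, 29 and 37 counts in SRF KO and 18, 11 and 15 in WT. Hoxc9 had 18, 16 and 16 counts against 10, 7 and 4, and Hoxc5 had 20, 24 and 33 against 18, 9 and 13. The log2 fold changes were 1.36 (SE 0.22) for Hoxc10, 1.38 (SE 0.33) for Hoxc9 and 1.08 (SE 0.27) for Hoxc5, all called and without overlap in CPM. Hoxc4 had 29, 29 and 29 counts against 32, 10 and 13. WT replicate 1 was nearest to the SRF KO libraries, and the call rested close to the threshold, with a log2 fold change of 0.81 (SE 0.29, adjusted p 0.0421 by edgeR) that missed it, at adjusted p values up to 0.114, when any library other than WT replicate 1 was left out, and by DESeq2 (adjusted p 0.0754). Without WT replicate 1 the log2 fold change of Hoxc4 was 1.32. Hoxc13, required for hair and nails, had 32, 29 and 39 counts against 48, 54 and 43 and a log2 fold change of -0.41 (SE 0.21, adjusted p 0.149 by edgeR), with overlapping groups. Hoxc12 had 1, 0 and 4 counts against 1, 0 and 1.

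In the Hoxd cluster, the lowest of the 4 in summed level, 3 genes were tested and all 3 were higher. Hoxd13 (chr2:74668310-74671599, plus strand), a regulator of digits, had 45, 46 and 48 counts in SRF KO and 30, 17 and 17 in WT. Its level was 1.69 ± 0.0418 against 0.694 ± 0.121 CPM (SD, n = 3), which is 1.26 on the log2 scale (SE 0.20, adjusted p 0.00037 by edgeR). Hoxd8 had 20, 24 and 27 counts against 13, 8 and 14, and Hoxd9 had 11, 14 and 13 against 3, 7 and 7. They were higher without overlap in CPM, at log2 fold changes of 1.15 (SE 0.27) and 1.27 (SE 0.41). For Hoxd9 the adjusted p of 0.0260 by edgeR missed the threshold when replicate 2 or 3 of SRF KO or replicate 1 of WT was left out, reaching 0.118, and by DESeq2 (adjusted p 0.0942).

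The other 6 genes of Hoxd fell under the filter. Hoxd11, which acts in the forearm with Hoxa11, had 4, 7 and 10 counts in SRF KO against 1, 1 and 2 in WT. Its pooled ratio was 5.78, with an interval for counting error from 1.95 to 23.2, and with no filter it was called higher (log2 fold change 2.42, adjusted p 0.00987 by edgeR). Hoxd1 had 5, 5 and 9 counts against 8, 5 and 8, and Hoxd4 had 8, 4 and 10 against 8, 9 and 9. Their pooled ratios of 0.996 (interval from 0.507 to 1.95) and 0.932 (interval from 0.503 to 1.71) have intervals wide on either side of 1. Hoxd10 had 2, 7 and 4 counts against 1, 2 and 5.

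**Figure D2:**
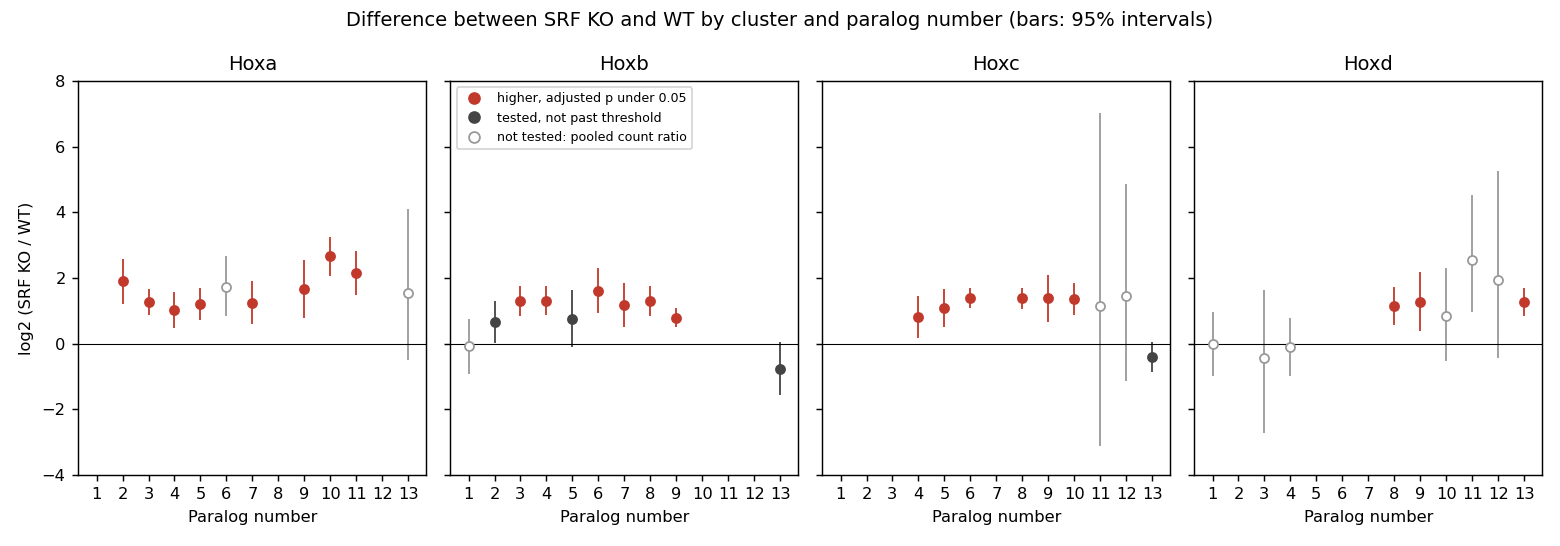
Log2 ratio of SRF KO over WT (vertical axis) by paralog number (horizontal axis) in the 4 clusters, with 95% intervals; red points passed the test, dark points were tested and did not, and open points are pooled count ratios of genes under the filter, whose intervals cover counting error only. The 23 red points lie between 0.79 and 2.65, and the dark points lie between -0.77 and 0.76.

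Read by paralog number, the ratio of summed levels of SRF KO over WT varied. It was 1.95 for paralog 2, 2.37 for 3, 2.05 for 4, 2.24 for 5, 2.79 for 6, 2.35 for 7, 2.52 for 8 and 1.90 for 9. The highest ratios were those of paralog 10, at 3.82 (3.44 ± 0.429 against 0.900 ± 0.216 CPM), and paralog 11, at 4.70 (1.03 ± 0.0356 against 0.220 ± 0.0248 CPM). In SRF KO, Hoxa10 made up 2.03 CPM of the first sum and Hoxa11 0.753 CPM of the second, while the fold of Hoxc10 was 2.57. No gene of paralog 11 had more than 6 counts in a WT library. For paralog 13 it was 1.14, since Hoxd13 was higher in SRF KO while Hoxb13 and Hoxc13 had lower means there without passing the test. Paralog 12 was near the limit of detection in both groups. The difference between paralog groups was not tested.

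**Figure D3:**
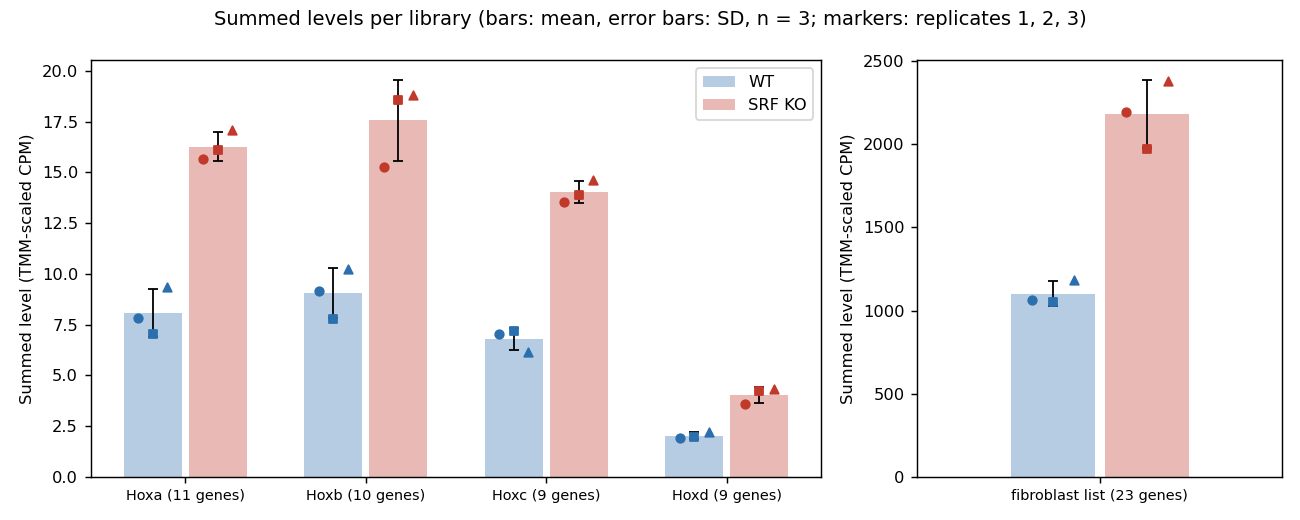
Summed level (vertical axis, TMM-scaled CPM, from 0) of the genes of each cluster and, at right, of 23 fibroblast genes, with bars for the mean, error bars for the SD (n = 3) and a marker for each replicate. In all 5 sums the SRF KO libraries (red) lie above the WT libraries (blue), at ratios between 1.94 and 2.07.

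The clusters as wholes had nearly the same ratio. Hoxa summed to 16.3 ± 0.728 CPM in SRF KO and 8.06 ± 1.17 in WT, a ratio of 2.02. Hoxb summed to 17.6 ± 1.99 against 9.05 ± 1.24 CPM, a ratio of 1.94, and Hoxc to 14.03 ± 0.560 against 6.80 ± 0.551 CPM, a ratio of 2.07. Hoxd summed to 4.05 ± 0.390 against 2.03 ± 0.178 CPM, a ratio of 2.0 (all SD, n = 3). The sums did not overlap between groups in any cluster. Within Hoxb, Hoxc and Hoxd there were genes well above and genes near or below a ratio of 1.

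Levels between genes were compared per kilobase of transcript. In SRF KO the high levels, in order, included Hoxc8 at 2.81 ± 0.251 CPM per kb, Hoxc6 at 2.30 ± 0.112, Hoxb9 at 2.21 ± 0.277 and Hoxa5 at 1.53 ± 0.275 (SD, n = 3). Hoxc6 and Hoxb9 differed by less than their spread. In WT they included Hoxb9 at 1.28 ± 0.159, Hoxc8 at 1.09 ± 0.158 and Hoxc6 at 0.872 ± 0.0613 CPM per kb. The step between Hoxb9 and Hoxc8 was about as wide as the SD. The order along a cluster did not follow the paralog number in either group. Hoxb9 in Hoxb, Hoxc8 in Hoxc and Hoxd13 in Hoxd held the highest level per kb in both groups.

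**Figure D4:**
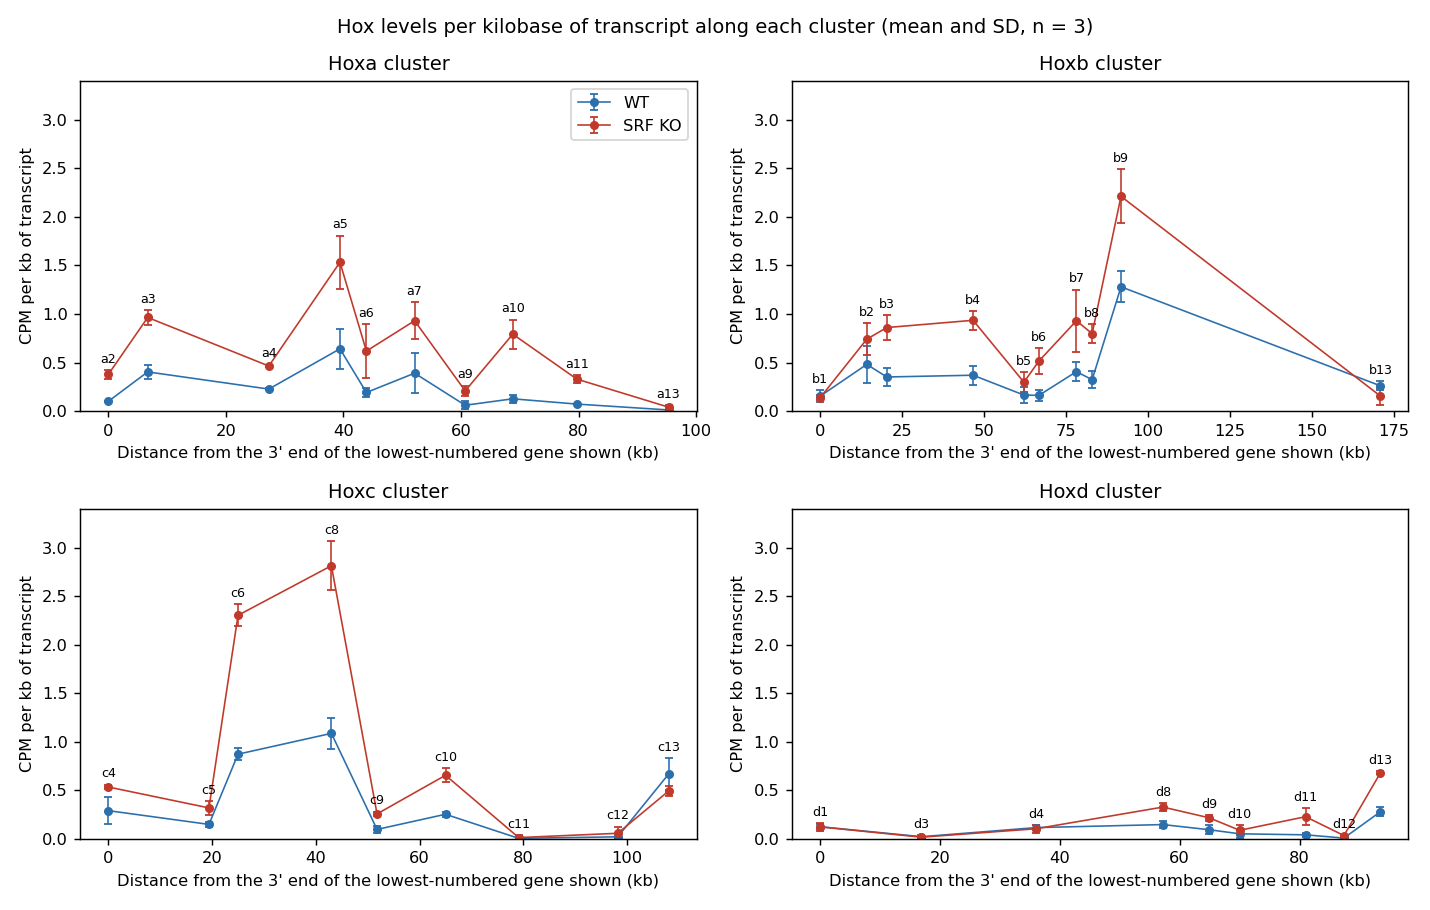
Level per kilobase of transcript (vertical axis, CPM per kb, mean and SD, n = 3) against the distance from the 3′ end of the lowest-numbered gene shown (horizontal axis, kb) in each cluster, with paralog labels over the points. High and low genes alternate along the clusters in both groups.

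The counting of some Hox genes is uncertain because genes overlap and the sources used here do not say whether strand was used. Exons of 9 Hox genes lie opposite exons of another gene. The largest shares of exon bases were those of Hoxb3 (70.5%) and Hoxb2 (58.5%), both opposite Hoxb3os. The share of Hoxa11, opposite Hoxa11os, came next, above those of Hoxa7 (28.8%) and Hoxa3 (25.5%). Without strand, reads of these genes and of their antisense partners cannot be told apart. Hoxa11os itself had 14, 9 and 18 counts in SRF KO and 2, 0 and 4 in WT, a pooled ratio of 7.52 with an interval for counting error from 3.18 to 21.7, the same direction as Hoxa11. On the same strand, Hoxd3 shares 88.0% and Hoxd4 45.1% of exon bases with other gene models. Between Hox genes themselves, the transcript used here shared no stretch of 100 bases with any transcript of another Hox gene for 37 of 39. The exceptions were Hoxc10, with 3.81% of its stretches in a transcript of Hoxc5, and Hoxd3, with 10.1% in a transcript of Hoxd4. Hoxc5 and Hoxd4 are thus not free of shared sequence, though the transcripts used for them showed none with another Hox gene. Hoxa10, Hoxb9, Hoxc6, Hoxc8 and Hoxd13 had neither an overlap nor a shared stretch.

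Next to the Hox genes, 17 noncoding RNA genes of the clusters were in the table, and 4 passed the filter. Halr1, a long noncoding RNA beside the 3′ end of Hoxa that is transcribed in embryonic stem cells, had 441, 436 and 461 counts in SRF KO and 871, 593 and 640 in WT. It was lower in SRF KO, at a log2 fold change of -0.51 (SE 0.07, adjusted p 0.000111 by edgeR), against the direction of the Hox genes. Mira, a noncoding RNA of the middle of Hoxa, had 33, 34 and 47 counts against 20, 25 and 24 and was higher (0.85, SE 0.24, adjusted p 0.0148). Hotairm1, a noncoding RNA of Hoxa, had 24, 24 and 27 counts against 26, 20 and 22 and a log2 fold change of 0.28 that did not pass. Hotair and Hottip had at most 1 count in any library.

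The clusters also hold miRNA genes that target Hox transcripts. The mature 5p strands of the miR-196 and miR-10 families are shown because each family has 1 seed (bases 2 to 8, in capitals) for loci in different clusters.
miR-196a-5p: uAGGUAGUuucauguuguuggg
miR-196b-5p: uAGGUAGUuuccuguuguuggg
miR-10a-5p: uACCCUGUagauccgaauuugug
miR-10b-5p: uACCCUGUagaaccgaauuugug

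The rows of Mir196b, Mir196a-2, Mir10b and Mir615 were at 0 in all 6 libraries, and Mir10a had at most 1 count. Mir196a-1, which lies between Hoxb9 and Hoxb13, had 13, 10 and 7 counts in SRF KO and 15, 3 and 12 in WT, overlapping and not past the test. Counts at a hairpin in these libraries come from longer transcripts and are not levels of the mature miRNA.

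Genes that flank the clusters did not share the direction. Among 14 flanking genes that were tested, 8 were lower in SRF KO and 6 did not pass, by edgeR with Benjamini-Hochberg adjustment. Over all 14778 genes tested, 21.3% were called lower. Calcoco2, near Hoxb, had 291, 290 and 313 counts against 811, 679 and 637 and a log2 fold change of -1.12 (SE 0.09). Hibadh was at -0.57 (SE 0.06), Ttll6 at -0.64 (SE 0.09) and Snx10 at -0.33 (SE 0.07). The fold changes of all 14 were negative, with a median of -0.20.

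Partners and regulators of Hox genes were also counted, to be read beside the 21.2% of all genes tested that were called higher and the 21.3% called lower. Of 9 TALE cofactors, with which Hox proteins bind DNA, 3 were higher and 3 lower. Meis1 was higher by 1.57 on the log2 scale (SE 0.14; 6.09 ± 0.713 against 2.06 ± 0.155 CPM, SD, n = 3) and Meis3 by 1.08 (SE 0.15), while Pbx2 was at -0.39 (SE 0.06) and Pknox2 at -0.81 (SE 0.14). Of the ParaHox and Evx genes, relatives of the Hox genes, 1 of 4 tested was called. Gsx1 had 19, 25 and 38 counts against 6, 4 and 7 (2.38, SE 0.35). Cdx1 (0.167), Cdx2 (-0.425) and Cdx4 (-0.755) did not pass, with overlapping groups.

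Of 28 Polycomb genes tested, 6 were higher, a share near that over all genes, and 12 lower, with a median log2 fold change of -0.10. Bmi1, a subunit of Polycomb repressive complex 1, was at 1.34 (SE 0.10) and Kdm2b, which brings that complex to CpG islands, at 0.39 (SE 0.05). Ezh1, a histone H3 methyltransferase of the other Polycomb complex, was at -0.44 (SE 0.05), and its accessory subunit Phf19 at -0.67 (SE 0.09). Of 15 trithorax and MLL genes, which counter Polycomb, 1 was higher (Setd1b, 0.55, SE 0.08) and 2 lower (Psip1, -0.47, SE 0.08; Wdr5, -0.20, SE 0.05). All of these values passed the threshold by edgeR, at adjusted p values of at most 0.00583.

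Of 14 genes of retinoic acid synthesis, breakdown and response that were tested, 6 were higher by edgeR and 8 did not pass. Cyp26a1, which breaks down retinoic acid and is induced by it, had 240, 221 and 205 counts in SRF KO and 23, 16 and 14 in WT, a log2 fold change of 3.78 (SE 0.17, adjusted p 1.62e-08 by edgeR). Rarg, a retinoic acid receptor, was at 0.63 (SE 0.06), Aldh1a3, a retinoic acid synthesis enzyme, at 1.53 (SE 0.17), and Rxrg at 1.38 (SE 0.20).

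Fibroblast and extraembryonic endoderm markers were also higher in SRF KO, to be read beside the 21.2% of all genes tested that were called higher. Of 23 fibroblast genes, all above 3 counts in every library, 22 were higher by edgeR and Fap did not pass, with a median log2 fold change of 1.09. Their summed level was between 1972 and 2379 CPM in SRF KO and between 1052 and 1186 CPM in WT, a ratio of 1.98 beside the 2.002 of the Hox sum. Col1a1, a defining fibroblast collagen, had means of 268 CPM (SRF KO) and 133 CPM (WT). The order of the SRF KO libraries was not the same: replicate 2 was the lowest in the fibroblast sum and replicate 1 in the Hox sum, with replicate 3 the highest in both. In WT, replicate 2 was the lowest and replicate 3 the highest in both. Of 17 extraembryonic endoderm genes tested, 17 were higher, with a sum between 3659 and 3912 CPM against between 460 and 489 CPM, a ratio of 7.97. The part of either in the Hox difference was not tested, and in bulk RNA more cells of a type and more RNA per cell cannot be told apart.

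Other marker lists were mixed, beside the 21.2% of all genes tested that were called higher and the 21.3% called lower. Tbx3, which is on both the mesoderm and the pluripotency list, was not called. Of 12 mesoderm genes tested, 4 were higher and 1 lower, with sums of 234 ± 0.459 and 214 ± 6.79 CPM, of which Tbx3 alone made up 195 and 186 CPM. The 4 were Lhx1 at 5.27, Foxf1 at 1.88, the VEGF receptor gene Kdr at 1.49 and Osr1 at 1.41 on the log2 scale, and the gene called lower was T, the primitive streak factor, at -1.15. Of 10 neural genes tested, 3 were higher and 2 lower, with sums of 124 ± 1.998 and 123 ± 1.95 CPM. Of 17 pluripotency genes, 1 was higher and 8 were lower, with sums between 6975 and 7105 CPM in SRF KO and between 8311 and 8887 CPM in WT (SD, n = 3, for all means). The iPSC label thus stood beside pluripotency genes that were over the floor in all 6 libraries.

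Total counts were between 26321602 and 36680156 per library, at which 3 counts are between 0.0828 and 0.117 CPM. Srf, the targeted gene, had between 84 and 131 counts where it was deleted and between 765 and 1326 in WT, in the direction of the labels in all 6.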

How the data were processed

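RNA was sequenced from 3 SRF KO and 3 WT libraries as paired reads of 150 bp. Per the labels' protocols, the authors removed adaptor, low-quality and empty reads. The deposited table holds whole-number read counts per gene and per transposable element subfamily, not normalized, judged from its values. The submitters' processing notes name mm10 and DESeq2 without a role. Aligner, counter, annotation and strand setting are not given in the sources used here. Each column was matched to its sample by name.

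The 39 Hox genes were fitted with all other entries in R 4.3.3. Entries with low counts were removed (filterByExpr, minimum count 10), leaving 15610, and libraries were scaled by TMM. SRF KO and WT were compared with the quasi-likelihood test of edgeR 4.0.16, and p-values were adjusted by Benjamini-Hochberg over all entries tested, with a threshold of 0.05. The SE is the absolute log2 fold change divided by the square root of F. Genes under the filter have a ratio of pooled counts with an exact conditional binomial 95% interval. Such intervals, and the floor of 3 counts, hold for counting error alone, because PCR copies of 1 molecule could not be recognised. Total counts per library were 26464092, 26413409 and 28407021 in SRF KO and 36680156, 26321602 and 28804289 in WT, so that a gene with 10 counts lies between 0.276 and 0.389 CPM. No pair of replicates agreed within sampling noise, and each counted as 1 replicate. WT replicate 2 stood furthest apart, with a chi-square per degree of freedom of 12.9 against WT replicate 1 and 15.4 against WT replicate 3. That of WT replicates 1 and 3 was 3.82, and those in SRF KO lay between 1.83 and 5.12. Without WT replicate 2, 3635 genes were called higher and 3774 lower, against 3132 and 3141 with all libraries.

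Coordinates, transcript lengths and exon overlaps come from GENCODE M21, which matched all 39 genes. The length is that of the longest protein-coding transcript in CCDS. Promoters and miRNAs come from RefSeq (GRCm38.p6). Tables were read with pandas 2.3.3 and plotted with matplotlib 3.10.9 in Python 3.11.15. Scripts were tested on simulated data. Alternatives were other scalings, filters and thresholds, DESeq2 1.42.0, gene entries alone, a replicate term and each library left out.

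The members, gene lists and tests were chosen with earlier results of these data known. Every library value is given for Hox genes past the threshold and for up to 6 genes per cluster with the highest level per kb. Up to 4 genes with the smallest p past the threshold are named from each of 7 lists of partners, regulators and neighbours, and Srf as the check of the labels. Hoxa11os, Hotairm1, Hotair, Hottip, the miRNA rows, Cdx1, Cdx2, Cdx4, Col1a1, Fap, T, Tbx3, Lhx1, Foxf1, Kdr and Osr1 were added after their values were seen. So were Hoxa6, Hoxa13 and other Hox genes under the filter. Values of 1 Hox gene enter the sums and counts but are not reported here by themselves.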

Additional observations from a re-analysis of the deposited data

How the results depend on the processing

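The count of Hox genes higher in SRF KO was 23 and stayed between 20 and 25 under every alternative except a minimum count of 30, where 14 were tested and 12 were higher, fewer genes being tested. DESeq2 called 20, all of them among the 23, and did not call Hoxa4 (1.04, adjusted p 0.0592), Hoxc4 (0.85, 0.0754) and Hoxd9 (1.27, 0.0942). Without each library in turn, between 21 and 23 were higher and between 0 and 1 lower, the 1 being Hoxb13 without SRF KO replicate 1. Hoxb2 was called higher without WT replicate 3 (1.01, adjusted p 0.0163). Other scalings moved the median of all genes by at most 0.04 on the log2 scale. More than 10 counts in every library were found for 14 Hox genes, against 30 at more than 3. Over all genes, the count lower was 2013 at an adjusted p under 0.01, and with a log2 fold change of 1 or more in size as a further condition 817 were higher and 260 lower. The log2 ratio of each cluster's sum stayed between 0.86 and 1.13 without each library in turn.

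Same-numbered libraries deviated together with correlations of 0.0474, 0.280 and 0.148, which does not show that the numbers pair them. With the replicate number as a block, 24 Hox genes were higher and 0 lower, the added one being Hoxb2 (0.64, adjusted p 0.0352), and over all genes 3659 were higher and 3853 lower. Depth limits most the 11 Hox genes under the filter.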
